A study of Mus musculus with 6 samples.

Results

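The genes described are 10 genes of the heat-producing programme of brown adipocytes, Ucp1, Cidea, Elovl3, Cpt1b, Ppargc1a, Dio2, Prdm16, Ebf2, Ppara and Adrb3. The set was chosen with earlier results of these data known, its genes were looked up by symbol, and all 10 were found among the 56748 genes of the count table. All 10 also passed the filter on low counts, which kept 16377 genes. The samples were whole aortas of 6-month-old mice, sequenced as bulk RNA. The sST2-KO group was 3 mice lacking soluble ST2, the secreted decoy form of the receptor for interleukin-33, and the WT group was 3 of their wild-type littermates. Mice of both groups were labelled as Apoe-deficient, a background prone to atherosclerosis, and both carried a minipump that delivered angiotensin II, a hormone that raises blood pressure, for 28 days. No aorta without angiotensin II was analysed here. The sources used here do not say how the sST2 knockout was made, which sex the mice were, which aortic segment was taken or whether perivascular fat was trimmed.

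Brown adipocytes are cells with many mitochondria and many small lipid droplets that burn fatty acids to make heat. Noradrenaline from sympathetic nerves acts on beta-adrenergic receptors, raises cyclic AMP, and both releases fatty acids from the droplets and switches on Ucp1, the mitochondrial carrier that lets protons flow back without making ATP. In mice, the fat around the thoracic aorta has a brown-like character, while the fat around the abdominal aorta is more like white fat.

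Adipocyte transcripts were present in every aortic library. The summed level of Adipoq, the adipocyte hormone adiponectin, Plin1, a coat protein of lipid droplets, and Cidec, a droplet fusion protein, was 1387, 175 and 1531 CPM in sST2-KO replicates 1 to 3 and 1031, 230.2 and 784 CPM in WT replicates 1 to 3 (CPM, TMM-normalized counts at a common library size). Both replicates numbered 2 were therefore the libraries with least adipocyte RNA. Other libraries stood apart for other reasons. Airway epithelial markers summed to 19769.9 CPM in sST2-KO replicate 2, against 2.43 to 22.2 CPM in the other 5 libraries. The liver transcript Alb stood at 6205 CPM in WT replicate 3 and at most 3.83 CPM elsewhere. Mitochondrially encoded transcripts took 23.7, 7.08 and 20.7% of counts in sST2-KO replicates 1 to 3, against 18.4, 37.8 and 19.4% in WT replicates 1 to 3. Libraries held 15615658 to 17988552 counts. Il1rl1, which encodes both forms of ST2, had 2.39, 2.82 and 4.86 CPM in sST2-KO libraries and 2.81, 9.49 and 4.35 CPM in WT libraries, ranges that overlap, and gene counts add the soluble to the membrane form. Apoe stood at 172, 86.7 and 145 CPM in sST2-KO libraries and at 15.1, 11.6 and 507 CPM in WT libraries, so transcripts of this gene were counted in every library despite the label, and a gene count does not show whether they are functional. WT replicates 1 and 2 lay below every sST2-KO library. The 507 CPM was in WT replicate 3, the library with Alb, and the part of liver transcripts in it was not tested. In bulk RNA, fewer cells of a type and less RNA per cell cannot be told apart.

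Ucp1 and most of the other genes had higher means in sST2-KO aortas, but none passed the test, and libraries within a group lay far apart. The log2 change was above 0 for 9 of the 10 genes, against 53.5% of all tested genes, and above 1 for 6 of them, Ucp1, Elovl3, Ppargc1a, Cidea, Cpt1b and Adrb3, against 7.27% of all tested genes. With 1 library left out, 5 to 7 of the 10 genes were above 1. The median log2 change of the 10 genes was 1.41, against 0.042 over all tested genes. The edgeR quasi-likelihood test with Benjamini-Hochberg adjustment called 0 of the 10 genes at an adjusted p under 0.05, and 0 of 16377 genes, 0% of those tested. At an unadjusted p under 0.05, 3 of the 10 genes were higher, Ucp1, Ppargc1a and Elovl3, where 5.08% of all tested genes were, and 0 were lower, where 5.95% were. DESeq2, run as an alternative, called 1 of the 10 genes higher, Ppargc1a, where it called 0.406% of its 14515 tested genes higher. Every sST2-KO library lay above every WT library for 1 gene, Ppargc1a, as for 9.09% of all tested genes. In either direction, 1 of the 10 genes and 19.1% of all tested genes separated the groups. The 10 genes share libraries whose adipocyte transcripts vary, so they are not 10 separate observations.

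**Figure D1:**
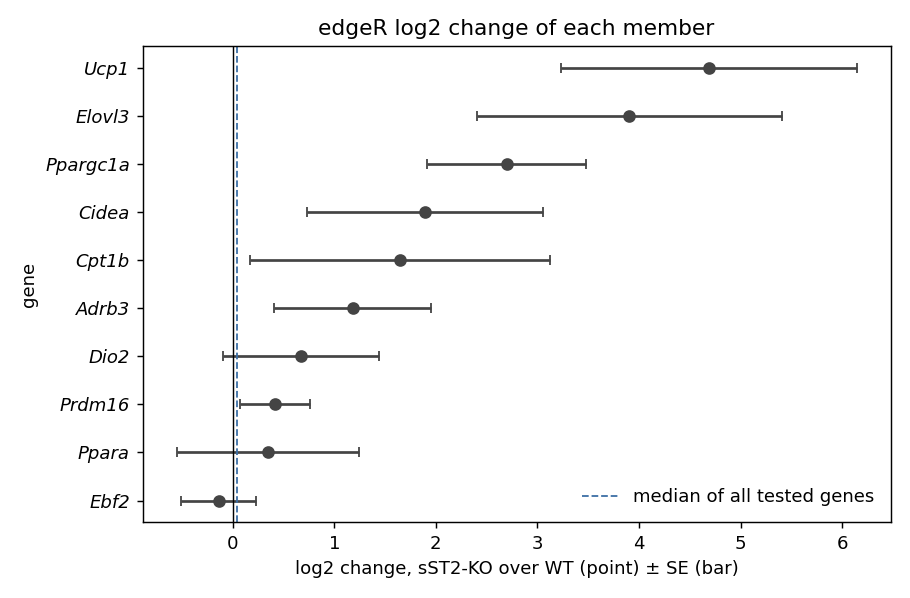
The log2 change of each gene, sST2-KO over WT, with its standard error from edgeR (n = 3 libraries per group); the dashed line is the median of all 16377 tested genes. Ucp1 lies at 4.68 and Ebf2, the lowest, at -0.14.

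Ucp1 (ENSMUSG00000031710, mm39 chromosome 8, 84016981 to 84025081, plus strand), the uncoupling protein that defines thermogenic adipocytes, had 591, 35.0 and 1433 CPM in sST2-KO replicates 1 to 3, against 44.7, 2.87 and 32.3 CPM in WT replicates 1 to 3. Behind these stood 10408, 708 and 21544 counts in sST2-KO and 811, 36 and 542 counts in WT. A pair of sST2-KO libraries lay above every WT library, and the third, replicate 2, lay below WT replicate 1. The means were 687 ± 704 CPM in sST2-KO and 26.6 ± 21.5 CPM in WT (SD, n = 3 each), and the fitted log2 change was 4.68 with an SE of 1.46. The edgeR adjusted p was 0.428 and that of DESeq2 0.0520. Ucp1 spanned 8.73 log2 units over the 6 libraries, the widest range of the 10 genes. Per kilobase of gene length, its mean level was 419.6 CPM in sST2-KO, the highest of the 10, and 16.3 CPM in WT, where Cidea stood higher.

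**Figure D2:**
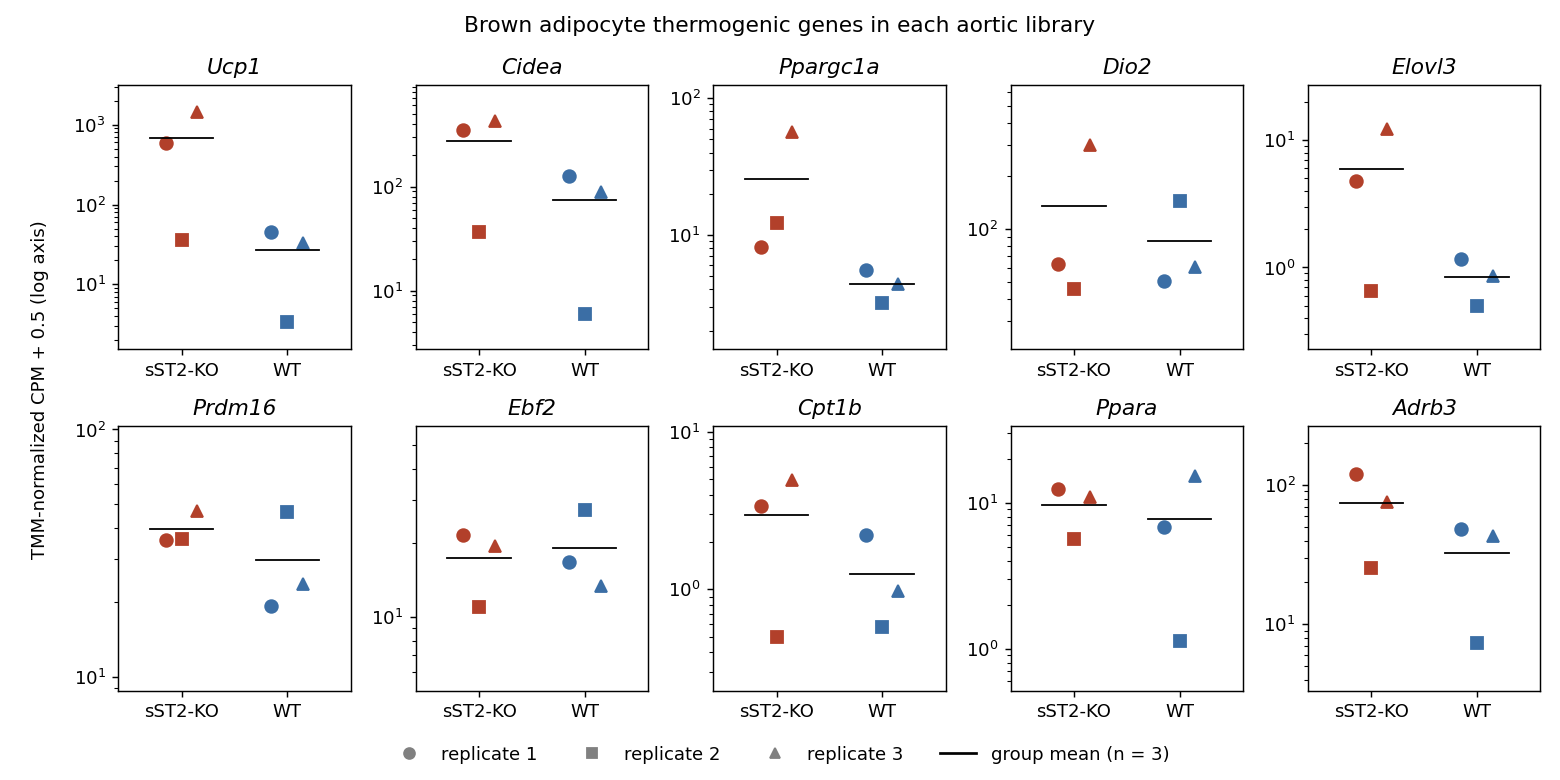
Level of each of the 10 genes in each library, as TMM-normalized CPM plus 0.5 on a log axis, with a horizontal line at the mean of the 3 libraries. Only Ppargc1a has every sST2-KO library above every WT library; Ucp1 in sST2-KO replicate 2 lies among the WT libraries.

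The sequences just upstream of 3 of these genes are shown because Ucp1, Ppargc1a and Dio2 are textbook targets of adrenergic signalling and their promoters carry short motifs of that pathway. Each run is the 250 bases before the RefSeq start in build GRCm38.p6, which is not the build of the counts (mm39), read 5′ to 3′ on the gene's own strand. Capitals mark TGACGTCA, the cyclic AMP response element bound by CREB-family factors, its core TGACG (or CGTCA, the same core on the other strand), AGGTCA, a nuclear receptor core, and TATAAA, searched on the gene's strand alone. The first 3 motifs were searched on both strands, and TGACGTCA contains TGACG on each strand. Of the 10 genes, 5 had an entry, these and Prdm16 and Ppara.
Ucp1, chr8:83290098-83290347, plus strand: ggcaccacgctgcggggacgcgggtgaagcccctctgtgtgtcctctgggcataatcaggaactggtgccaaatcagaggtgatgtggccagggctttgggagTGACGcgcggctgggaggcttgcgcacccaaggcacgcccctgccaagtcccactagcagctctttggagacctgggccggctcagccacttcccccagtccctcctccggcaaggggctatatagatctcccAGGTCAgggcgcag
Ppargc1a, chr5:51567726-51567975, minus strand: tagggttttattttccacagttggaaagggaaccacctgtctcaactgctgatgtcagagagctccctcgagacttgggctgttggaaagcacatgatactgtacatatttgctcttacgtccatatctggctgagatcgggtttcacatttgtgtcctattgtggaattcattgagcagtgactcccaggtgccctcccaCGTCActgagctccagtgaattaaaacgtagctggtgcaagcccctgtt
Dio2, chr12:90739039-90739288, minus strand: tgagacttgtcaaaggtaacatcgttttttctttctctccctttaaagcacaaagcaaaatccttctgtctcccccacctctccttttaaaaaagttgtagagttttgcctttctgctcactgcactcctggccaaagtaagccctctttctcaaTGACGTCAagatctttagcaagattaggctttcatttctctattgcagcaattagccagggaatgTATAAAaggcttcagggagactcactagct
Dio2 held the whole element TGACGTCA, 95 to 88 bases before its start, and a TATAAA 30 to 25 bases before it. Ucp1 held TGACG 147 to 143 bases before its start and AGGTCA 14 to 9 bases before it. Ppargc1a held the core on the other strand, 49 to 45 bases before its start. Of 32851 mouse promoters of the same length, 1.55% held TGACGTCA, 17.8% TGACG, 14.0% AGGTCA and 7.59% TATAAA. Of the other entries, Ppara held TGACG and Prdm16 held none of the 4. The letters are a description of the windows and say nothing of binding in these aortas. Dio2, with the whole element, had a log2 change of 0.68. Ppargc1a, Ucp1 and Ppara, with the core but not the whole element, had 2.70, 4.68 and 0.35. Prdm16, with none of the 4 motifs, had 0.42. A link between motif and change was not tested.

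Among the genes that handle lipid, Cidea, Elovl3 and Cpt1b had the same order of libraries at the top as Ucp1. Cidea (mm39 chromosome 18, 67476674 to 67500855, plus strand) encodes a protein of the lipid droplet surface that moves lipid between droplets and is used as a brown adipocyte marker. It had 351, 36.2 and 429 CPM in sST2-KO replicates 1 to 3, against 126, 5.50 and 87.9 CPM in WT replicates 1 to 3. The groups overlapped, since sST2-KO replicate 2 lay below WT replicates 1 and 3. The means were 272 ± 208 CPM in sST2-KO and 73.2 ± 61.7 CPM in WT (SD, n = 3 each), and the fitted log2 change was 1.89 with an SE of 1.16 (adjusted p = 0.542 by edgeR).

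Elovl3 (chromosome 19, 46120336 to 46124133, plus strand), an elongase of very long fatty acids that is switched on by cold in mouse brown fat, was low throughout. It had 76, 3 and 178 counts in sST2-KO replicates 1 to 3, against 12, 0 and 6 counts in WT replicates 1 to 3, or 4.32, 0.148 and 11.8 CPM against 0.662, 0 and 0.358 CPM. A count of 0 in WT replicate 2 allows up to 0.239 CPM (3 counts, counting error only), and sST2-KO replicate 2 lay below both other WT libraries. The log2 change was 3.90 (SE 1.50), with an unadjusted p of 0.0353 and an edgeR adjusted p of 0.443. Cpt1b (chromosome 15, 89300608 to 89310066, minus strand) encodes the form of carnitine palmitoyltransferase that admits fatty acids to mitochondria in muscle and brown fat. It had 51, 0 and 67 counts in sST2-KO replicates 1 to 3, against 31, 1 and 8 counts in WT replicates 1 to 3. Its log2 change was 1.65 (SE 1.48, edgeR adjusted p = 0.654), 0.90 without sST2-KO replicate 3 and 3.06 without WT replicate 1, and the libraries overlapped. Gm44502 covers the whole of Cpt1b on the same strand and had 0 counts in every library. How reads shared by overlapping genes were counted is not given, so whether the Cpt1b counts lack such reads cannot be told. Heart also expresses Cpt1b. The 11 cardiac muscle markers summed to 256, 334 and 85.0 CPM in sST2-KO replicates 1 to 3, against 563, 48.3 and 411 CPM in WT replicates 1 to 3, and their part in the Cpt1b level was not tested.

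Ppargc1a and Dio2 act between the receptor and the mitochondria. Ppargc1a (chromosome 5, 51611592 to 51725068, minus strand), a coactivator that drives mitochondrial biogenesis and Ucp1 transcription, had 7.61, 11.8 and 56.3 CPM in sST2-KO replicates 1 to 3, against 5.02, 2.71 and 3.88 CPM in WT replicates 1 to 3. Every sST2-KO library lay above every WT library, with the highest value again in sST2-KO replicate 3, and the lowest sST2-KO library was replicate 1. The means were 25.2 ± 27.0 CPM in sST2-KO and 3.87 ± 1.15 CPM in WT (SD, n = 3 each), and the fitted log2 change was 2.70 with an SE of 0.78. The unadjusted p was 0.0107, the edgeR adjusted p 0.417 and the DESeq2 adjusted p 0.0134. Without sST2-KO replicate 3 the log2 change was 1.32. Gm42614, which overlaps Ppargc1a on the same strand, had 29, 3 and 53 counts in sST2-KO and 0 in each WT library. Unlike Ucp1, Ppargc1a in sST2-KO replicate 2, the library with little adipocyte RNA and much airway RNA, was above that of replicate 1. Other aortic cells also transcribe this gene, and the part of any cell type in its level was not tested.

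Dio2 (chromosome 12, 90691326 to 90705812, minus strand), the deiodinase that makes active thyroid hormone inside the cell, had 62.3, 44.9 and 299 CPM in sST2-KO replicates 1 to 3, against 50.3, 144 and 60.2 CPM in WT replicates 1 to 3. The highest library was sST2-KO replicate 3 and the next WT replicate 2, the library with the least Ucp1. The means were 135 ± 142 CPM in sST2-KO and 84.8 ± 51.3 CPM in WT (SD, n = 3 each), and the fitted log2 change was 0.68 with an SE of 0.77 (adjusted p = 0.721 by edgeR). Without sST2-KO replicate 3 it was -0.66.

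The transcription factors that set brown identity had the log2 changes nearest 0 of the 10 genes, together with Ppara. Prdm16 (chromosome 4, 154400582 to 154721330, minus strand), a coregulator that holds the brown programme in place, averaged 39.0 ± 6.39 CPM in sST2-KO and 29.2 ± 14.4 CPM in WT (SD, n = 3 each). Its libraries ran 35.2, 35.4 and 46.4 CPM in sST2-KO replicates 1 to 3, and 18.8, 45.7 and 23.1 CPM in WT replicates 1 to 3, and the groups overlapped. The log2 change was 0.42, SE 0.34 (adjusted p = 0.623 by edgeR). Ebf2 (chromosome 14, 67470741 to 67668367, plus strand), which opens brown-specific enhancers, had 21.1, 10.5 and 19.0 CPM in sST2-KO replicates 1 to 3, against 16.2, 26.7 and 12.9 CPM in WT replicates 1 to 3. Its log2 change was -0.14 (SE 0.37, edgeR adjusted p = 0.891), with an opposite sign in fits without sST2-KO replicate 2 (0.12) or without WT replicate 2 (0.20). These genes spanned 1.28 (Prdm16) and 1.30 (Ebf2) log2 units over the 6 libraries. Both stood highest or next to highest in WT replicate 2, where Ucp1, Cidea and Elovl3 were lowest.

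Ppara (chromosome 15, 85619184 to 85687020, plus strand), a nuclear receptor that turns on fatty acid oxidation in liver, heart and brown fat, had 12.0, 5.15 and 10.4 CPM in sST2-KO replicates 1 to 3, against 6.29, 0.638 and 14.7 CPM in WT replicates 1 to 3. Its highest level was in WT replicate 3, the library with liver transcripts, whose part in the level was not tested. The log2 change was 0.35 (SE 0.90, edgeR adjusted p = 0.887), -0.21 without WT replicate 2 and 1.38 without WT replicate 3.

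Adrb3 (chromosome 8, 27715804 to 27740644, minus strand), the beta-adrenergic receptor found mainly on rodent adipocytes, had 119.9, 24.8 and 75.6 CPM in sST2-KO replicates 1 to 3, against 47.6, 6.86 and 42.5 CPM in WT replicates 1 to 3. The groups overlapped through sST2-KO replicate 2. The means were 73.4 ± 47.6 CPM in sST2-KO and 32.3 ± 22.2 CPM in WT (SD, n = 3 each), and the fitted log2 change was 1.18 with an SE of 0.77 (adjusted p = 0.559 by edgeR). It was 0.63 without sST2-KO replicate 1 and 0.69 without WT replicate 2. Whether counting used strand is not given, and the antisense gene Gm45470 overlaps Adrb3, with 136, 44 and 81 counts in sST2-KO and 94, 25 and 57 counts in WT, so reads of the pair cannot be told apart. Of the other 14 genes of the adrenergic and lipolytic cascade, 13 were tested; 10 had a positive log2 change and 3 a negative one, with a median of 0.59 and 0 called. Adrb1, the beta-1 receptor, had 7.04, 14.4 and 9.38 CPM in sST2-KO replicates 1 to 3, against 4.08, 2.63 and 5.78 CPM in WT, with no overlap (log2 change 1.30, SE 0.42, edgeR adjusted p = 0.431). Creb1, which encodes the factor that binds the cyclic AMP element, had 32.3, 36.6 and 37.4 CPM in sST2-KO and 42.9, 63.7 and 45.6 CPM in WT, also with no overlap (log2 change -0.52, SE 0.20, edgeR adjusted p = 0.442). The lipases Pnpla2 and Lipe, which free fatty acids, had log2 changes of 0.66 and 0.93, and the cyclase Adcy3 and kinase Prkaca 0.62 and 0.60.

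Ordered by level per kilobase, the genes formed similar tiers in most libraries. Ucp1 or Cidea led in every library except WT replicate 2, where Dio2 led at 22.4 CPM per kilobase. In sST2-KO the means were 419.6 CPM per kilobase for Ucp1, 244 for Cidea, 21.7 for Adrb3 and 21.1 for Dio2. In WT they were 65.7 for Cidea, 16.3 for Ucp1, 13.2 for Dio2 and 9.57 for Adrb3. In sST2-KO, Ucp1 spanned 21.4 to 876 and Cidea 32.5 to 385 CPM per kilobase, and neither was higher in every library. Adrb3, at 7.34 to 35.5, and Dio2, at up to 46.6 CPM per kilobase, overlapped likewise. Cidea stood above Adrb3 in every sST2-KO library and above Ucp1 in every WT library, although the ranges over libraries overlapped. Below them Prdm16, Ppargc1a, Elovl3, Ebf2 and Ppara averaged 2.40 to 4.18 CPM per kilobase in sST2-KO, and Prdm16, Ebf2 and Ppara averaged 1.88 to 3.13 in WT. Cpt1b was lowest in sST2-KO at 0.727 and Elovl3 lowest in WT at 0.172. Of the 10 genes, 7 were highest in sST2-KO replicate 3 and 6 were lowest in WT replicate 2. They lie on 8 chromosomes.

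Set against adipocyte transcripts of the same library, Ucp1 was higher in every sST2-KO aorta, replicate 2 included. For each 1000 CPM of Adipoq, Plin1 and Cidec together there were 426, 199.9 and 936 CPM of Ucp1 in sST2-KO replicates 1 to 3, against 43.4, 12.5 and 41.2 CPM in WT replicates 1 to 3. The log2 ratio averaged -1.22 ± 1.11 in sST2-KO and -5.15 ± 1.02 in WT (SD, n = 3 each). The difference was 3.93, with a two-sided exact permutation p of 0.1, the smallest that 3 against 3 libraries allow. Leaving out 1 library at a time gave differences of 3.35 to 4.49. Cidea stood at 253, 207 and 280.0 CPM per 1000 in sST2-KO and 123, 23.9 and 112 CPM in WT, a difference in log2 ratio of 1.83, or 1.06 without WT replicate 2. Elovl3 stood at 3.11, 0.847 and 7.73 CPM in sST2-KO and 0.642, 0 and 0.456 CPM in WT. The adipocyte sum was low in both replicates numbered 2, so a gene that does not follow it rises in those libraries on this scale. Prdm16 stood at 202 CPM per 1000 in sST2-KO replicate 2 and 198 CPM in WT replicate 2. A share over all tested genes includes such genes and is not a share over adipocyte genes alone. On this scale Ucp1, Cidea and Elovl3, 3 of the 10 genes, had every sST2-KO library above every WT library, against 0.611% of all tested genes. For Elovl3 this rests on the 0 counts of WT replicate 2, which allow up to 1.04 CPM per 1000, above the 0.847 CPM (3 counts) of sST2-KO replicate 2, so its separation was not established at this depth. The other 7 genes overlapped; the differences in log2 ratio were 1.86 for Ppargc1a, 1.01 for Adrb3, 0.82 for Ppara, 0.18 for Prdm16, -0.020 for Dio2 and -0.47 for Ebf2. In an edgeR fit with the log2 adipocyte sum of each library as a covariate, the log2 changes were 3.74 for Ucp1 (adjusted p = 0.108), 2.74 for Elovl3, 2.44 for Ppargc1a, 1.55 for Cidea, 1.01 for Adrb3 and 0.019 for Cpt1b, and none was called. Adipoq, Plin1 and Cidec did not pass the test themselves, with log2 changes of 0.29, 1.13 and 0.47. Adipoq had opposite signs in fits without sST2-KO replicate 3 (-0.16) or without WT replicate 2 (-0.13), and Cidec without sST2-KO replicate 3 (-0.090).

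**Figure D3:**
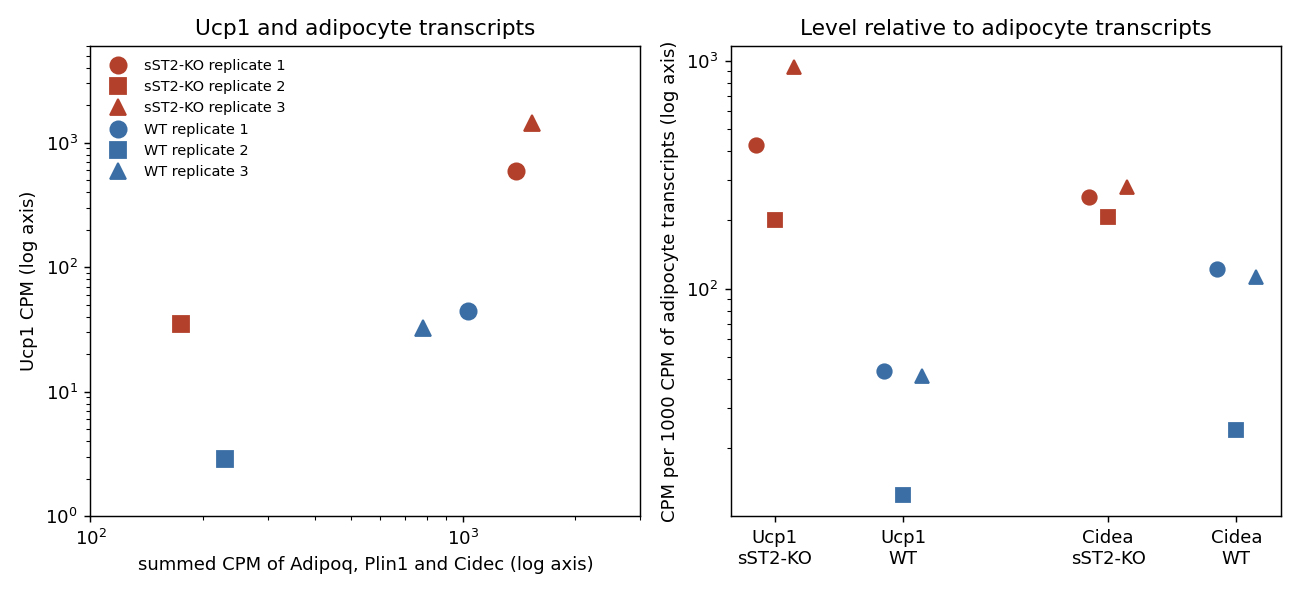
Left, Ucp1 CPM against the summed CPM of Adipoq, Plin1 and Cidec in each library, both axes log; right, Ucp1 and Cidea per 1000 CPM of that sum, log axis. At 175 CPM of adipocyte transcripts sST2-KO replicate 2 has 35.0 CPM of Ucp1, and at 230.2 CPM WT replicate 2 has 2.87 CPM; on the right every sST2-KO library lies above every WT library.

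Other brown adipocyte genes were also highest in sST2-KO replicates 1 and 3 as a sum. Of 25 such genes, 22 were tested, 21 with a positive and 1 with a negative log2 change, and 0 were called by edgeR or DESeq2. Their median log2 change was 1.34, beside 0.042 for all tested genes, and they summed to 1298, 373 and 2162 CPM in sST2-KO replicates 1 to 3, against 676, 212 and 589 CPM in WT replicates 1 to 3. Plin5, which ties lipid droplets to mitochondria, had 49.3, 14.5 and 62.5 CPM in sST2-KO and 14.2, 1.99 and 11.5 CPM in WT, with no overlap and a fitted change of 2.18 on the log2 scale (SE 0.77, adjusted p = 0.435 by edgeR). The thioesterase Acot11 had 43.7, 39.2 and 48.1 CPM in sST2-KO and 28.7, 36.6 and 31.7 CPM in WT, also with no overlap (log2 change 0.44, SE 0.17). S100b, named after its values were seen, was the third gene with no overlap (log2 change 0.52), so 3 of 22 were higher without overlap, where 9.09% of all tested genes were. At an unadjusted p under 0.05, 5 of the 22 were higher, where 5.08% of all tested genes were, and 0 were lower. These were Plin5, Acot11, Acot2 and Clstn3, and Gk, named after its values were seen, whose log2 change was 1.82, or 0.60 without sST2-KO replicate 3.

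Most of the protein-coding genes closest to Ucp1 across libraries were other genes listed for brown adipocytes. Closeness was the root-mean-square difference in log2 CPM from Ucp1 over the 6 libraries, after centring each gene on its mean. The 8 closest outside the 10 genes were Clstn3 (1.07 log2 units), Otop1 (1.14), Cox7a1 (1.25), Ucp3 (1.32), Plin5 (1.42), Cox8b (1.43), Gpd1 (1.46) and Aspg (1.49). Of these 8, Clstn3, Otop1, Cox7a1, Ucp3, Plin5 and Cox8b were on the list of other brown adipocyte genes, and Gpd1 and Aspg were not. Clstn3 had 128, 15.8 and 201 CPM in sST2-KO replicates 1 to 3, against 31.8, 3.43 and 24.5 CPM in WT replicates 1 to 3. Cox7a1 and Cox8b, subunits of cytochrome oxidase that mark brown fat and muscle, had log2 changes of 1.79 and 1.49. Among the 10 genes, Cidea (1.17) and Elovl3 (1.39) were nearest Ucp1, while Dio2 (2.76), Prdm16 (2.85) and Ebf2 (2.93) were farthest. These genes share 6 libraries whose adipocyte transcripts vary, so closeness over 6 libraries is a description only.

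**Figure D4:**
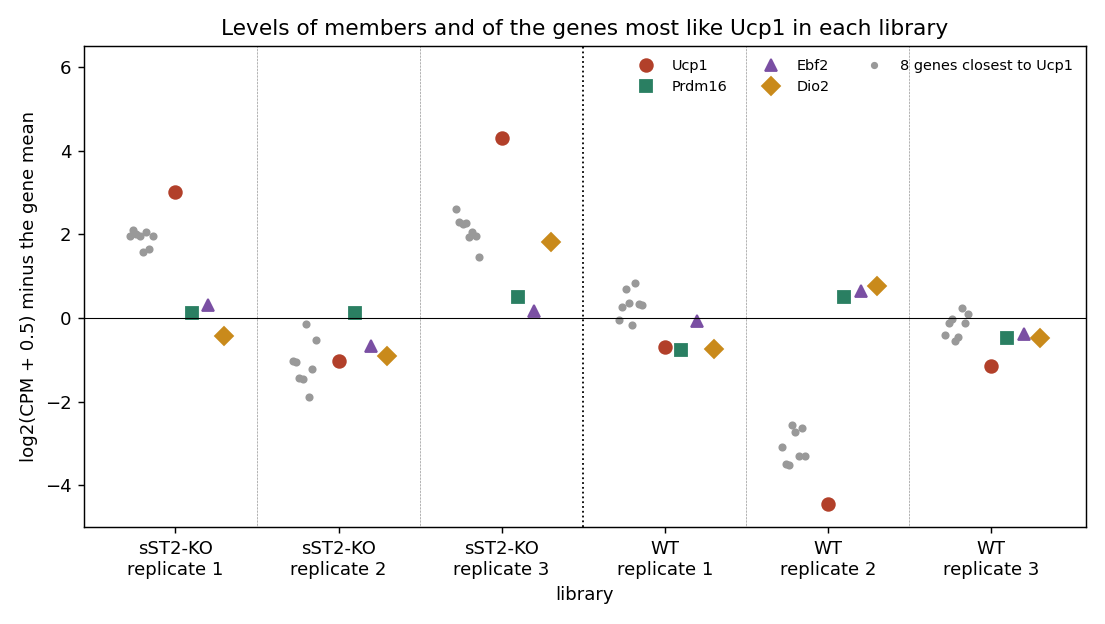
Level of Ucp1, Prdm16, Ebf2 and Dio2 and of the 8 genes closest to Ucp1 in each library, as log2(CPM + 0.5) centred on the gene's mean of the 6 libraries. Ucp1 and the 8 genes are high in sST2-KO replicates 1 and 3 and lowest in WT replicate 2, where Prdm16, Ebf2 and Dio2 lie above their means.

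Adipocyte genes that are not specific to brown fat had medians nearer 0 or below it, a contrast that was not tested. All 10 pan-adipocyte markers had a positive log2 change, with a median of 0.65, and for 0 of them did the groups separate. The most abundant, Fabp4, a fatty acid carrier, had a log2 change of 0.84. Pck1, which feeds glycerol synthesis, stood at 1.93 on the log2 scale with an SE of 0.82 (adjusted p = 0.455 by edgeR). Of 11 white adipocyte markers, 9 were tested, 3 with a positive and 6 with a negative log2 change, with a median of -0.41. The most abundant of these, Retn and Sncg, had log2 changes of 0.11 and 0.024. The satiety hormone gene Lep had 23.0, 1.68 and 5.39 CPM in sST2-KO and 35.9, 2.63 and 25.7 CPM in WT (log2 change -1.10, SE 1.10). Agt, the precursor of angiotensin, had 0.909, 0.742 and 0.732 CPM in sST2-KO and 2.04, 2.31 and 38.2 CPM in WT (log2 change -4.15, SE 1.25, edgeR adjusted p = 0.422); liver is its main source, WT replicate 3 held liver transcripts, and without that library the log2 change was -1.44. Of 5 beige markers, 4 were tested. Tbx1 had 14.6, 64.4 and 15.4 CPM in sST2-KO and 9.10, 5.50 and 6.68 CPM in WT (log2 change 2.15, SE 0.63, edgeR adjusted p = 0.418, DESeq2 adjusted p = 0.0256). Its highest library was the one with airway transcripts, sST2-KO replicate 2, and without it the log2 change was 1.08. Tmem26 stood at -1.19 on the log2 scale with an SE of 0.46 (adjusted p = 0.443 by edgeR).

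The upstream regulators and the other heat-producing cycles had medians of 0.16 and -0.16. Of 13 transcription regulators of brown fat, all tested, 10 had a positive and 3 a negative log2 change. Cebpb, a factor that acts early in adipocyte differentiation, had 96.5, 88.2 and 193 CPM in sST2-KO and 65.9, 14.0 and 77.4 CPM in WT, with no overlap (log2 change 1.26, SE 0.62, edgeR adjusted p = 0.486). Nrip1, a corepressor of Ucp1, stood at -0.35 on the log2 scale (SE 0.19) with no overlap. Of 7 genes of creatine and calcium cycling, routes to heat that do not need Ucp1, 6 were tested, 2 with a positive and 4 with a negative log2 change. Ckb, a creatine kinase used by thermogenic fat, had 143, 203 and 123 CPM in sST2-KO and 92.4, 91.6 and 112 CPM in WT, with no overlap (log2 change 0.66, SE 0.23, edgeR adjusted p = 0.435). Its highest library was sST2-KO replicate 2, where Ucp1 was lowest among the sST2-KO aortas. Ckmt2, Alpl and Slc6a8 had log2 changes of -2.70 (SE 1.84), -0.41 and -0.17, and Atp2a2, the most abundant of the list, 0.11.

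Markers of other cell types also varied between the libraries. The 5 macrophage markers Adgre1, Cd68, Csf1r, Itgam and Mrc1 all had every sST2-KO library below every WT library, with sums of 432, 266 and 279 CPM in sST2-KO replicates 1 to 3, against 668, 679 and 646 CPM in WT replicates 1 to 3. Their median log2 change was -1.03; edgeR called 0 of them, with all 5 at an unadjusted p under 0.05, and DESeq2 called 4 lower, Adgre1, Csf1r, Itgam and Mrc1. Of all tested genes, 19.1% separated the groups in either direction, a share that includes the 9.09% that were higher in sST2-KO. At an unadjusted p under 0.05 in edgeR, 5.95% were lower. Among its 14515 tested genes, DESeq2 called 291 in either direction, of which 59 were higher and the rest lower. The 7 smooth muscle markers summed to 5066, 6044 and 10535 CPM in sST2-KO and 3050.01, 9280.13 and 4489 CPM in WT. The 5 endothelial markers summed to 1559, 617 and 1216 CPM in sST2-KO and 937, 778 and 847 CPM in WT. Sympathetic neuron markers, from the cells that drive brown fat, summed to only 8.47, 11.7 and 5.99 CPM in sST2-KO and 10.4, 14.2 and 14.0 CPM in WT, and Th was at most 0.478 CPM. Nerve cell bodies lie outside the aorta, so transcripts of these cells are not a measure of nerve supply. The 13 skeletal muscle markers summed to 20.6, 41.7 and 21.4 CPM in sST2-KO and 25.6, 24.5 and 22.7 CPM in WT. Of 9 hepatocyte markers, 5 or 6 were at 0 counts in every library except WT replicate 3, and Cyp2e1, which adipocytes also express, stood there at 85.8 to 576 CPM. The part of these markers in the levels of the 10 genes was not tested.

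**Figure D5:**
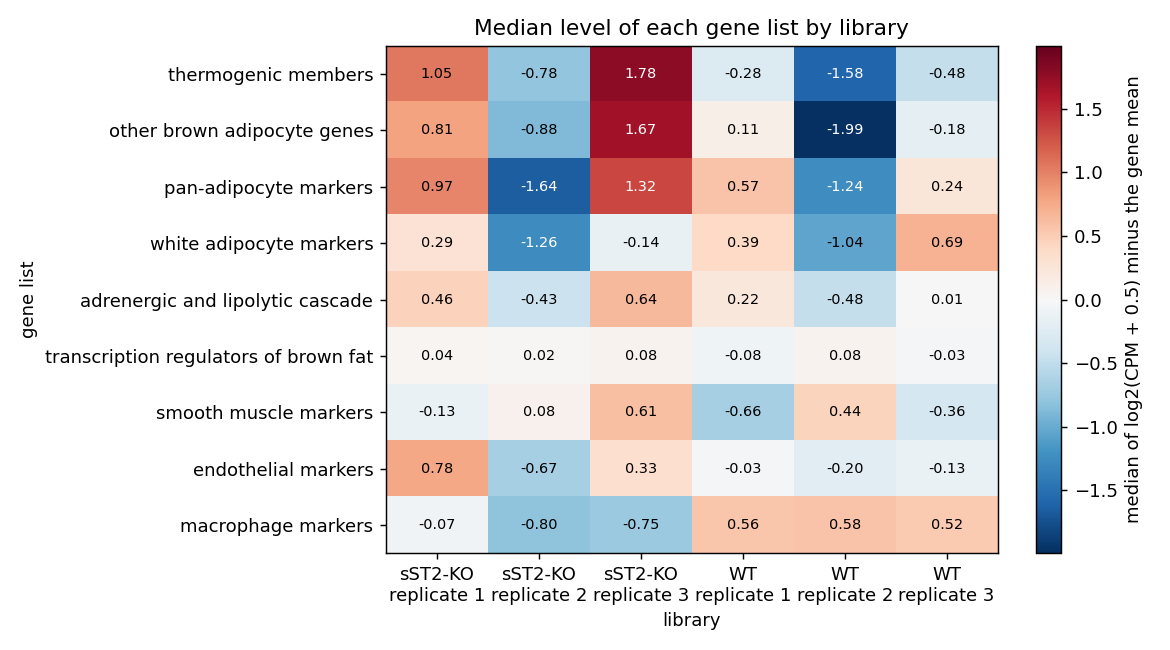
Each cell is the median of a gene list in 1 library, from log2(CPM + 0.5) with each gene centred on its mean of the 6 libraries. The thermogenic members are at 1.05, -0.78 and 1.78 in sST2-KO replicates 1 to 3 and at -0.28, -1.58 and -0.48 in WT; pan-adipocyte markers are low in both replicates numbered 2, and macrophage markers are higher in every WT library.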

How the data were processed

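Poly-A selected, random-primed RNA libraries of 6 aortas were grouped by their titles into 3 sST2-KO and 3 WT. The deposited table holds unnormalized counts for each Ensembl gene, with gene lengths in bases, made on build mm39 per the submitters' processing notes. The sources used here do not name the aligner, the counter, its strand setting or the annotation version. Each library is taken as 1 mouse, as the study's design gives 3 mice per group. No pair of libraries of a group agreed within sampling noise.

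The counts went through edgeR 4.0.16 (R 4.3.3) (filterByExpr with minimum count 10 and total 15, TMM, glmQLFit, glmQLFTest), with Benjamini-Hochberg adjustment over 16377 genes and a threshold of 0.05. Standard errors are the log2 change divided by the square root of F. A pseudocount of 0.5 CPM was used for library profiles. Libraries held 15615658 to 17988552 counts, or effective sizes of 12543147 to 20210452 after TMM scaling, at which 3 counts are worth 0.148 to 0.239 CPM; these floors cover counting error only. The scripts were tested on simulated data with the same replicate spread set for every gene. That test does not show how often a change would be called in these libraries. Alternatives were DESeq2 1.42.0, limma-voom in limma 3.58.1 with and without sample quality weights, RLE and upper-quartile scaling, other filters, mitochondrial genes left out, a replicate block, an adipocyte covariate, and libraries left out.

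The 10 genes and all lists were chosen with earlier results of these data known. Text names all 10 genes, of each other list up to 4 tested genes with the lowest unadjusted p and 2 of the most abundant, and the 8 genes closest to Ucp1, leaving out placeholder symbols. Promoters come from RefSeq, build GRCm38.p6, matched by symbol.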

Additional observations from a re-analysis of the deposited data

How the results depend on the processing

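The log2 change of the members kept its sign in every setting for Ucp1 (3.55 to 5.39), Cidea, Ppargc1a (1.32 to 3.13), Elovl3, Cpt1b, Prdm16 and Adrb3; Elovl3 could not be tested under the filter of 1 CPM in 3 libraries. The cause of any difference between settings was not tested. DESeq2 called 291 genes, 1 of them a member, and limma-voom with quality weights called 43, against 0 genes in the fit described. Leaving out 1 library gave 0 to 1 genes called; the 1, Gm45104 without sST2-KO replicate 2 (log2 change -5.23, adjusted p = 0.0493), was named after its value was seen. Members at an unadjusted p under 0.05 numbered 1 with limma-voom, 5 with the replicate block and 5 with the adipocyte covariate, and 2 to 4 when 1 library was left out. The share of all tested genes under this cut was not worked out for these settings. Without that share, these counts cannot decide whether the members differ from other genes. Deviations from the group mean had correlations of 0.172, 0.074 and -0.069 between same-numbered libraries, and of -0.145 to 0.041 between the others. So few libraries cannot decide whether the numbers pair them. The replicate block called 0 genes.

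Signs changed for Adipoq with the replicate block (-0.039) and the adipocyte covariate (-0.38), and for Cidec with the covariate (-0.028). With 1 library left out, Adipoq ranged from -0.16 to 0.79, Cidec from -0.090 to 0.94, Dio2 from -0.66 to 1.28, Ebf2 from -0.33 to 0.20 and Ppara from -0.21 to 1.38. With quality weights Ebf2 was 0.42 and Ppara -0.085. The median log2 change of the members was 1.03 to 2.05 with 1 library left out, 1.89 without WT replicate 3 and sST2-KO replicate 2 and 0.77 with the adipocyte covariate. With Adipoq alone as the denominator, Ucp1 per adipocyte transcript differed by 4.31. With 3 libraries per group, Ucp1 had at least 36 counts in every library and spanned 8.73 log2 units. Whether depth or library spread limited its test was not tested. For Elovl3 and Cpt1b, counts of 0 to 3 in some libraries limit the values.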
